A study of Mus musculus with 39 samples.

Results

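The heat shock genes described here are Hspa1a, Hspa1b, Hspa8, Hsph1, Dnajb1, Hspb1, Hspd1, Hspe1, Hsp90aa1 and Hsf1, 10 genes chosen by name. A gene was measured where a probe of the array carried its name, which held for 9 of the 10 genes among 29411 gene names on the array. Where a name had several probes, the brightest stood for the gene and the others served as a check. No probe was named Hspa1b. All 9 brightest probes were well above background on 39 of 39 arrays, so no member was lost to a filter on low values. The set was called cytosolic, which fits 6 of the 9 measured genes. Hspd1 and Hspe1 encode the chaperonin of the mitochondrial matrix, and Hsf1 encodes a transcription factor.

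Heat shock proteins are chaperones, which bind unfolded proteins and help them to fold, to be refolded after stress or to be handed on for degradation. When unfolded protein accumulates, the transcription factor HSF1 is released from its chaperones, forms trimers and binds heat shock elements in the promoters of these genes, so that the inducible members rise within minutes. The immediate early genes, such as Fos and Egr1, are another class of genes that respond within minutes, and both classes were read on the same arrays.

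RNA of epididymal adipose tissue, the fat pad beside the epididymis, was measured on 39 one-colour Agilent arrays from C57BL/6J mice of no stated genotype change. The mice were weaned, 3 to 4 weeks old at the start, and randomised to 5 diets of 30 animals. LFC was a low fat diet with 10% of calories from fat and was the control. HFC was a high fat, high sucrose diet with 60% of calories from fat. In HF5, HF20 and HF75 the HFC diet was combined with KAL-1, an aqueous ethano-botanical formulation, at 5, 20 and 75 µg. There were 11 LFC arrays (days 1, 6, 10 and 14 and weeks 0, 3, 6, 9, 12, 15 and 18), 10 HFC arrays (the same times from day 6 on) and 6 arrays of each KAL-1 dose (weeks 3 to 18). Weeks were counted from day 14, so day 14 and week 0 were the same feeding time. Per the labels 5 animals of a diet were killed every 3 weeks, but the labels do not say how many animals an array holds. The series record speaks of 3 biological replicates, but each diet has a single array at each time point here. Time points therefore served as the replicates of a diet, and the p-values of diet and of time below measure the spread between time points. Those of the slope on the immediate early signal measure the spread between arrays left after the terms of the fit. Permutation p-values come from shuffling the arrays of a set.

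Values are log2 of the processed signal minus the array's 75th percentile, so that 0 is a probe at the 75th percentile of its array and a difference of 1 is a doubling. The 6 adipocyte markers looked up (Adipoq, Plin1, Cidec, Pnpla2, Cfd and Lep) were well above background on 39 of 39 arrays. Genes of epididymis (Adam7, Lcn5, Crisp1 and Defb2) were well above background on 20 to 33 arrays and genes of testis (Prm1, Tnp1 and Prm2) on 36 to 38. In a tissue made of several cell types, fewer cells of a type and less RNA per cell cannot be told apart. A pair of arrays stood apart from the rest. On the LFC week 3 array 97.1% of the spots were well above background and 16431 spots were marked as outliers, and on the HFC week 12 array these values were 94.5% and 10531. The other 37 arrays had 53.7% to 79.6% of spots well above background and 21 to 387 outlier spots. Scanning took place in 2 periods, and the arrays of days 1 to 14 belong to the later one.

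Sequences are shown first for the genes whose response was steepest and for the Hspa1b question. Hspa1a and Hspa1b are neighbouring copies that encode nearly the same inducible HSP70 protein. Of the 4 probes named Hspa1a, the 2 dimmer ones list accessions of both copies, and the 2 brighter ones, which share 30 of 60 bases, list Hspa1a only. The 2 probes that list both copies are shown because their signal cannot be assigned to either copy. Over the 39 arrays the brighter of them ran from -2.65 to 6.12 and the dimmer, well above background on 37 arrays, from -6.88 to 2.61.

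Hspa1a probe listing both copies, brighter: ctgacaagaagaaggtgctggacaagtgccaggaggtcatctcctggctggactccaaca
Hspa1a probe listing both copies, dimmer: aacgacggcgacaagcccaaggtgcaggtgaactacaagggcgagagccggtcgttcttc

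Promoter windows of 300 bases (250 before the start site and 50 after) were taken from RefSeq on build GRCm38.p6. They were found for 7 of the 10 genes, in 10 windows, with none for Hspa8, Hsp90aa1 and Hsf1. The windows of Hspa1a and Hspa1b were identical at 296 of 300 positions (98.7%). A heat shock element is built from inverted GAA units, and a script looked on both strands for 2 neighbouring units, GAANNTTC or TTCNNGAA, and for the longer 3-unit run GAANNTTCNNGAA, which contains the 2-unit motifs. A 2-unit motif was present in 15.1% of all 32851 promoter windows and the 3-unit run in 0.603%. The 250 bases before the start are printed for Hspa1a (chr17:34972157-34972406, minus strand) and Hspb1 (chr5:135887669-135887918, plus strand), the members with the steepest slopes below. Capitals mark GAANNTTC.

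Hspa1a: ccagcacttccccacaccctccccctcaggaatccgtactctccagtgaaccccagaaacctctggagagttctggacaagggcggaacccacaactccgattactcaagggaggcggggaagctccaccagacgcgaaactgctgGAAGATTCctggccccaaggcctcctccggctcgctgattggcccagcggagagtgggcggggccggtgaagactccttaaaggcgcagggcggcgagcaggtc
Hspb1: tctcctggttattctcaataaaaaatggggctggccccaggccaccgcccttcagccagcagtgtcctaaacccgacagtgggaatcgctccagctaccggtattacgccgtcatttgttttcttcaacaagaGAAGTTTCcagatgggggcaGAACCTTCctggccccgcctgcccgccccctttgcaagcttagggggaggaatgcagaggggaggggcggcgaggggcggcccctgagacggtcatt

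Hspa1a held 1 such motif, with its first base at -104 from the start site, and Hspb1 held 2, at -117 and -97. Hspa1b also held 1 at -104. The 3-unit run was found in 3 genes, Hspd1, Hspe1 and Hsph1. Hspd1 and Hspe1 are transcribed in opposite directions from neighbouring starts. Both Hspd1 windows overlap that of Hspe1, and 1 of them holds the same pair of overlapping 3-unit runs. The 30 bases from -95 to -66 of Hspe1 (chr1:55088053-55088082, plus strand) show them, with capitals marking the runs. In Hsph1 the run lay after the start, at 36 or 15 bases depending on the start used. Neither window of Dnajb1 held any of these letters. The matches are a description of these windows only.

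Hspe1: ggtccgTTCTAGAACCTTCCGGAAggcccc

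Hspa1a, the inducible cytosolic HSP70, varied more than any other member. Over the 39 arrays its values ran from -0.51 (HFC day 6) through a median of 5.68 to 7.67 (HF75 week 15). On LFC it was 1.32 at day 1, 1.05 at day 6, 6.19 at day 10, 5.77 at day 14 and 4.80 at week 0, then 3.13, 6.89, 6.30, 0.33, 6.52 and 5.83 at weeks 3 to 18. On HFC it was -0.51 at day 6, 0.18 at day 10, 2.48 at day 14 and 5.08 at week 0, then 3.76, 6.46, 6.91, 5.43, 6.12 and 6.89. Values below 2 came on both diets, on LFC days 1 and 6 and week 12 and on HFC days 6 and 10. Most of them were thus early, on arrays of the later scan period. On HF20 the 6 weekly values were 4.98, -0.09, 6.61, 0.24, 6.29 and 1.05, so that weeks 6, 12 and 18 were low and weeks 3, 9 and 15 high. On HF75 they were 5.35, 6.71, 7.23, 0.43, 7.67 and 6.63, with week 12 alone low. On HF5 they stayed between 4.66 and 6.60. At week 12 the LFC, HF20 and HF75 arrays were all under 0.5 and the HFC and HF5 arrays above 5. The probe was saturated on 7 arrays, and its values there are lower bounds.

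**Figure D1:**
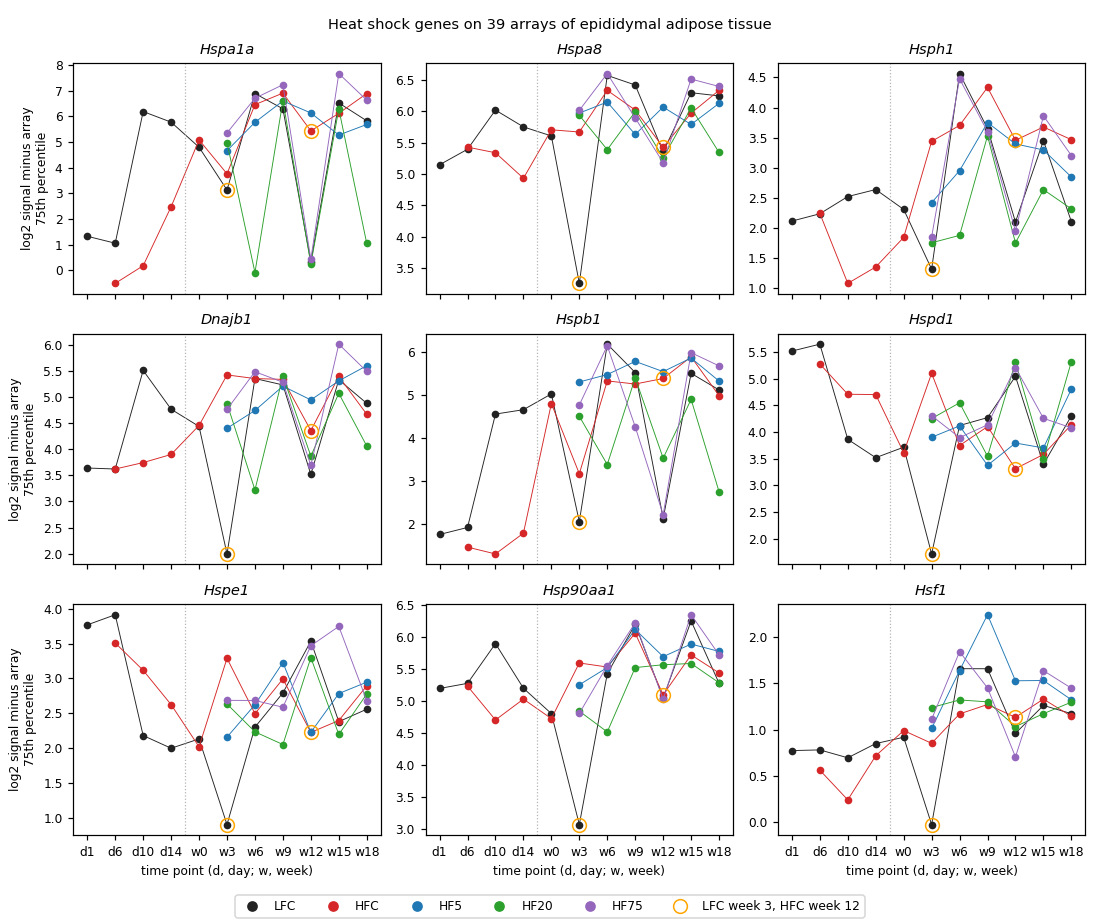
Value of the 9 measured genes (y axis, log2 signal minus the array's 75th percentile) on each of the 39 arrays against time point (x axis, days then weeks after the dotted line), 1 point per array and 1 colour per diet, with the LFC week 3 and HFC week 12 arrays ringed. Hspa1a moved between -0.51 and 7.67, while LFC week 3 was the lowest array for 6 of the 9 genes.

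The partners of Hspa1a in the cytosol moved over smaller ranges. Dnajb1 encodes the J-domain protein that activates HSP70, and it was lowest on LFC week 3, had a median of 4.87 and reached 6.01 (HF75 week 15). Hsph1 encodes HSP110, the nucleotide exchange factor of HSP70, and it ran from 1.08 (HFC day 10) through 2.64 to 4.56 (LFC week 6). Hspa8 encodes the constitutive HSC70, and apart from LFC week 3 (3.25) it lay between 4.93 (HFC day 14) and 6.61 (HF75 week 6). Hspb1 encodes the small heat shock protein HSP25, a holder of unfolded protein and a regulator of actin. It ran from 1.30 (HFC day 10) through 4.98 to 6.18 (LFC week 6). Low values came on LFC days 1 and 6 (1.75 and 1.91), LFC week 12 (2.12), HF75 week 12 (2.21) and HFC day 6 (1.45), where Hspa1a was low too. HFC day 14, at 1.78, and LFC week 3, at 2.05, were also low. On HF20 weeks 6, 12 and 18, Hspb1 was 3.38, 3.52 and 2.74, below each of weeks 3, 9 and 15.

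The mitochondrial pair followed another course. Hspd1, the chaperonin subunit HSP60, ran from 1.71 (LFC week 3) through 4.12 to 5.64 (LFC day 6). Its highest values, all above 5, came on LFC days 1 and 6, HFC day 6, HFC week 3, the HF20 arrays of weeks 12 and 18 and the week 12 arrays of LFC and HF75. Hspe1, its cochaperonin HSP10, ran from 0.91 (LFC week 3) through 2.63 to 3.91 (LFC day 6). Hsp90aa1, the inducible cytosolic HSP90, lay between 4.52 (HF20 week 6) and 6.35 (HF75 week 15) apart from LFC week 3, at 3.07. Hsf1 itself, the regulator of the response, ran from -0.03 (LFC week 3) through 1.17 to 2.25 (HF5 week 9, the dimmest array).

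LFC week 3 was the lowest of 39 arrays for 6 of the 9 genes, Hspa8, Dnajb1, Hspd1, Hspe1, Hsp90aa1 and Hsf1. For Hsph1 it was the 2nd lowest, for Hspb1 the 6th and for Hspa1a the 11th. HFC week 12 ranked between 2nd and 28th from the lowest and was the lowest for none. Of a list of 32 other genes, mostly chaperones and cochaperones, 23 were well above background on LFC week 3, against 28 to 32 on the other 38 arrays. Their mean value was 0.01 there against 0.63 to 1.41.

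The immediate early signal of an array was summarised as the mean of 12 genes (Fos, Fosb, Junb, Egr1, Egr2, Nr4a1, Ier2, Ier3, Dusp1, Atf3, Zfp36 and Btg2), none of them a heat shock gene. These genes are switched on within minutes of a stimulus without new protein synthesis. The scores fell into separate sets, 28 arrays from 3.44 to 5.53 and 11 arrays from -0.63 to 2.21, with the widest gap, 1.23, between them. The lower set held LFC days 1 and 6 and weeks 3 and 12, HFC days 6 and 10 and week 3, HF20 weeks 6, 12 and 18, and HF75 week 12. This was 4 of 11 LFC, 3 of 10 HFC, 0 of 6 HF5, 3 of 6 HF20 and 1 of 6 HF75 arrays. Of the 9 arrays on which Hspa1a was below 2 all were among these 11, and the other 2 of the 11, LFC and HFC week 3, had Hspa1a values of 3.13 and 3.76.

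A linear model in limma gave the slope of each probe on the score over the 39 arrays, with terms for diet and time point. The slope is the log2 change of the probe per 1 log2 unit of score. Of 28044 probes tested, 9437 (33.7%) had an adjusted p under 0.05, 18.1% rising with the score and 15.5% falling. Of the 9 heat shock genes, 5 rose with the score and none fell. The median slope was 0.22 over the 9 genes and 0.02 over all probes tested.

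Hspa1a and Hspb1 had the steepest slopes. Hspa1a rose by 1.13 ± 0.07 (SE) per unit of score (limma adjusted p = 3.53e-12), which was rank 99 from the highest among 28044 probes. Hspb1 rose by 0.61 ± 0.06 (limma adjusted p = 7.82e-08, rank 540). Dnajb1 rose by 0.30 ± 0.07 (limma adjusted p = 0.00112), and its other probe by 0.56. Hspa8 rose by 0.22 ± 0.06 (limma adjusted p = 0.00454), while its other probe, with a slope of 0.30, did not pass (limma adjusted p = 0.0660). Hsph1 rose by 0.22 ± 0.07 (limma adjusted p = 0.0142). The other 3 Hspa1a probes had slopes of 1.15, 1.29 and 1.29, the last 2 being those that list both copies, and all 4 probes passed, as did both of Dnajb1.

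Those 5 genes were not equally firm. The call of Hsph1 was lost without both arrays that stood apart (slope 0.19, limma adjusted p = 0.0538) but not without either alone (limma adjusted p = 0.0249 and 0.0298). It was also lost without week 12 (0.18, limma adjusted p = 0.153), without day 10 (0.19, limma adjusted p = 0.0510) and over weeks 0 to 18 alone (0.16, limma adjusted p = 0.105). The calls of Hspa1a, Hspb1, Dnajb1 and Hspa8 held when each time point was left out in turn.

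The other 4 genes did not pass. Hsp90aa1 had a slope of 0.11 ± 0.06 (limma adjusted p = 0.137) and Hsf1 of 0.07 ± 0.04 (limma adjusted p = 0.136). The slopes of Hspd1, -0.17 ± 0.08 (limma adjusted p = 0.0881), and Hspe1, -0.11 ± 0.06 (limma adjusted p = 0.170), were negative. Without the LFC week 3 array alone they were -0.25 (limma adjusted p = 0.000104) and -0.17 (limma adjusted p = 0.00705), so both then fell with the score, in a fit where 41.3% of all probes passed. Without the HFC week 12 array alone they were -0.12 and -0.08, with limma adjusted p of 0.252 and 0.369, and 29.6% of all probes passed. Without both arrays the slope of Hspd1 was -0.22 (limma adjusted p = 0.000913) and that of Hspe1 -0.15 (limma adjusted p = 0.0317), and 36.4% of all probes passed. Without all arrays of week 12 they were -0.07 and -0.01, with limma adjusted p of 0.627 and 0.915. The other probes of Hspd1 and Hsf1 gave slopes of -0.13 and 0.08, neither past the threshold.

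**Figure D2:**
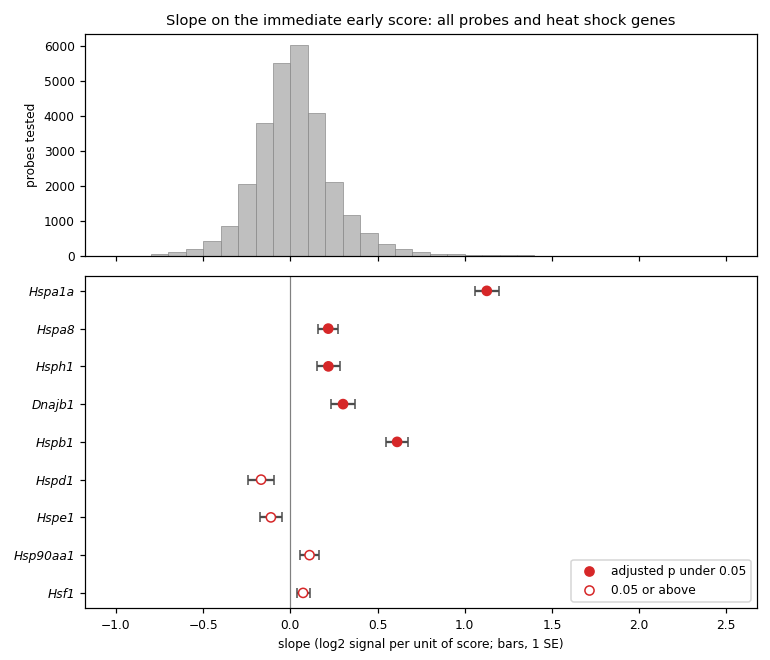
Slope on the immediate early score (x axis, log2 signal per unit of score) for the 28044 probes tested (top, number of probes per bin of 0.1) and for the 9 heat shock genes (bottom, points with bars of 1 SE, filled where the limma adjusted p was under 0.05). Hspa1a at 1.13 and Hspb1 at 0.61 lay far to the right of most probes, and Hspd1 and Hspe1 lay left of 0 with open symbols.

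Because the scores formed separate sets, the relation was also read within each. The fit of the upper set kept the terms for diet and time point, and that of the lower set had neither. Within the 28 arrays of the upper set 60 of 27264 probes (0.22%) passed, and Hspa1a was among them (slope 1.78 ± 0.35, limma adjusted p = 0.0467). The slopes of the other members there were 1.33 for Hspb1, 0.82 for Hsph1, 0.63 for Dnajb1, 0.45 for Hspa8 and -0.52 for Hspd1, with limma adjusted p of 0.141 to 0.556. Those of Hspe1, Hsf1 and Hsp90aa1 lay between -0.07 and 0.16. Within the 11 arrays of the lower set 2 of 29468 probes (0.00679%) passed and no member did, although the Hspa1a slope was 1.06 ± 0.21 (limma unadjusted p = 0.000294, adjusted p = 0.762). Slopes of Hspa8, Dnajb1, Hsp90aa1 and Hsf1, above 0 over all arrays, were below 0 in that set (-0.26, -0.01, -0.20 and -0.09). LFC week 3, the lowest of all arrays for each of these genes, had the highest score of that set, 2.21. Without LFC and HFC week 3, r with the score there was -0.50 for Hspa8, -0.17 for Dnajb1, 0.06 for Hsp90aa1 and 0.14 for Hsf1.

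Correlations with the score were also computed within each set, 18 in all (9 genes in each), and the two-sided permutation p-values given are not adjusted. Over the 28 arrays r with the score was 0.773 for Hspa1a (Spearman's rho 0.638, permutation p = 0.0001 and 0.00043) and 0.805 for Hspb1 (rho 0.639, permutation p = 0.00013 and 0.00044). Without the 2 arrays whose scores were farthest from the median, HFC day 14 and HFC week 12, r was 0.535 and 0.598. For Hsph1 r was 0.646 (rho 0.731, permutation p = 5e-05 and 3e-05) and 0.689 without those arrays, and for Hsf1 it was 0.645 (rho 0.709, permutation p = 0.00049 and 5e-05) and 0.665. Dnajb1 (0.658, rho 0.515, permutation p = 0.00012 and 0.0059) and Hspa8 (0.716, rho 0.514, permutation p = 8e-05 and 0.0055) fell to 0.421 and 0.398. Hsp90aa1 had r = 0.478 (rho 0.501, permutation p = 0.0062 and 0.0068), and Hspd1 -0.194 (rho 0.030, permutation p = 0.33 and 0.88). For Hspe1 r was 0.251 (rho 0.388, permutation p = 0.19 and 0.043). Without the same arrays these were 0.458, 0.019 and 0.408.

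In the lower set of 11 arrays Hspa1a still followed the score, with r = 0.850 (rho 0.773, permutation p = 0.00058 and 0.0073) and 0.675 without LFC week 3 and HFC week 3. For the other 8 genes the permutation p of r there was 0.19 to 0.96. These correlations take no account of diet or time point.

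**Figure D3:**
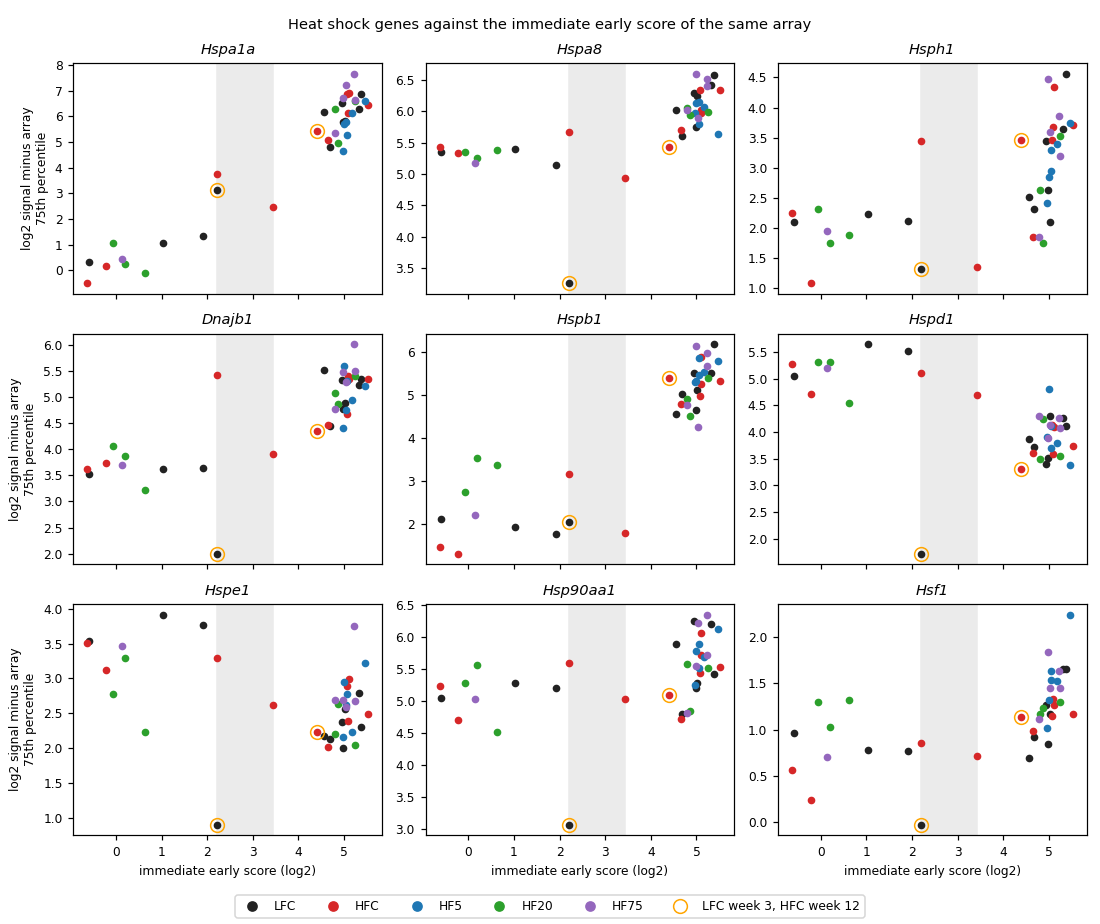
Value of each heat shock gene (y axis, log2 signal minus the array's 75th percentile) against the immediate early score of the same array (x axis, mean log2 value of 12 genes), 1 point per array and 1 colour per diet, with the gap between 2.21 and 3.44 shaded. Values of Hspa1a and Hspb1 above 4 came only on arrays with scores above the gap, and the values of Hspd1 above 5 only on arrays below it.

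Some marker genes passed in the slope fit as well. Of all probes tested 18.1% rose and 15.5% fell, and these small lists were not tested against those shares. Of 3 endothelial markers 3 rose (Pecam1 by 0.54, Cdh5 by 0.48 and Tek by 0.48 per unit), of 6 adipocyte markers 3 fell (slopes of -0.57 for Lep, -0.46 for Plin1 and -0.27 for Pnpla2) and of 4 macrophage markers 2 fell (-0.24 for Adgre1 and -0.25 for Csf1r). Of 4 epididymal genes 1 rose (Defb2 by 0.60), and none of the stromal, muscle, testis or blood genes tested passed. The mean level of the endothelial markers ran from -0.03 to 3.26 on LFC, 0.09 to 2.93 on HFC, 1.41 to 3.27 on HF5, -0.25 to 2.96 on HF20 and 0.17 to 2.70 on HF75. That of the adipocyte markers ran from 2.68 to 5.48 on LFC, 3.10 to 5.56 on HFC, 2.59 to 5.86 on HF5, 3.55 to 5.57 on HF20 and 2.31 to 5.50 on HF75. For the macrophage markers the ranges were -0.99 to 2.33, 0.64 to 2.78, 0.43 to 2.32, 0.45 to 2.54 and 0.60 to 2.48 in the same order of diets. No marker of these 3 lists was missing, with Pecam1 and Cdh5 well above background on 38 arrays and the others on 39. The part of these cell types in the slopes of the heat shock genes was not tested.

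Other chaperones were read from lists of the same pathway. Of 32 further genes, mostly of cytosolic and mitochondrial chaperones and cochaperones, 31 were tested, 3 rose and 2 fell, and their median slope was -0.0047. The list also held Serpinh1 and Hspa13, of the endoplasmic reticulum, and Hsf2, a transcription factor that was not tested. Those that rose were Dnajb5 (0.39), a J-domain protein, Bag3 (0.37), a cochaperone of HSP70 that works with small heat shock proteins and is a known HSF1 target, and Hspa2 (0.34), an HSP70 best known from the testis. Those that fell were Trap1 (-0.30), the mitochondrial HSP90, and Bag1 (-0.21), a nucleotide exchange factor of HSP70, both named after their values were seen. Of the 8 subunits of TRiC, the cytosolic chaperonin, 0 passed by limma and 0 had an unadjusted p under 0.05. Of 12 chaperones of the endoplasmic reticulum 11 were tested and 3 rose, Hspa5 (BiP, by 0.38), Dnajb9 (by 0.17) and Hsp90b1 (by 0.12), with a median of 0.04. The count of 5 of 9 and these counts were not tested against each other. Nor were they tested against the shares over all probes, 18.1% rising and 15.5% falling.

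The genes whose pattern was most like the mean of Hspa1a, Dnajb1 and Hsph1 over the 39 arrays, out of 20084 names, were Klf4 (r = 0.938), Maff (0.921), Klf6 (0.921), Cebpd (0.917) and Zfp36 (0.911). Klf4, Klf6, Maff and Cebpd are transcription factors, and Zfp36, which is also in the score, encodes a protein that promotes the decay of mRNA. The mean was taken over unscaled log2 values, so Hspa1a weighed most in it. Over the 39 arrays the SD was 2.52 for Hspa1a, 0.85 for Dnajb1 and 0.92 for Hsph1. The r values describe arrays that fall into separate sets and carry no p.

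The first comparison of diets asked what the high fat diet did to these genes relative to LFC. Over the 10 shared time points 0 of 29168 probes (0%) passed in limma, and 889 had an unadjusted p under 0.05, none of them a heat shock gene. The methods name a t-test of 3 control against 3 treated values, which 1 array per diet and time point does not allow. A t-test on the paired differences over the time points, run in its place, also gave 0 after adjustment, with 928 at an unadjusted p under 0.05. HFC minus LFC, the Hspa1a differences were -1.57, -6.01 and -3.30 at days 6, 10 and 14 and 0.29 at week 0. From week 3 to week 18 they were 0.63, -0.43, 0.61, 5.11, -0.41 and 1.06. The large differences, those of days 10 and 14 and week 12, came with differences in score of -4.78, -1.55 and 4.99. At day 6, with a smaller Hspa1a difference than at day 14, the score differed by -1.66. The mean Hspa1a difference was -0.40 ± 0.80 (SE, limma adjusted p = 0.998), and it was -0.06 with the score as a covariate, -1.22 without LFC week 3 and HFC week 12, and 0.22 without day 10. The mean differences of the other 8 genes lay between -0.33 (Hspb1) and 0.29 (Hspe1). Without LFC week 3 and HFC week 12 they lay between -0.96 (Hspb1) and 0.22 (Hspe1), and those of Hspa8 (-0.28), Hsph1 (-0.22), Dnajb1 (-0.33) and Hsp90aa1 (-0.24) turned from above to below 0, with limma adjusted p of 0.708 to 0.858 for the 8 genes. HFC was higher at 3 to 7 of 10 time points for each of the 9 genes.

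Day 14 and week 0, the same feeding time, gave different values. At day 14 Hspb1 was 4.65 on LFC and 1.78 on HFC, and at week 0 it was 5.02 and 4.79. Hspa1a differed by -3.30 at day 14 and by 0.29 at week 0. Score differences between the diets at these times were -1.55 and -0.03.

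Over weeks 3 to 18, when all 5 diets were sampled, the question was whether KAL-1 altered the levels on the HFC diet. The order of the Hspa1a medians was HF75 (6.67, range 0.43 to 7.67), HFC (6.29, range 3.76 to 6.91), LFC (6.06, range 0.33 to 6.89), HF5 (5.73, range 4.66 to 6.60) and HF20 (3.01, range -0.09 to 6.61). All 5 ranges overlapped, and so did those of neighbours in the order. For each of the 5 contrasts at these weeks 0 of 31450 probes (0%) passed in limma. An unadjusted p under 0.05 was seen for 725 probes (HFC against LFC), 1076 (HF5 against HFC), 1523 (HF20 against HFC), 472 (HF75 against HFC) and 549 (mean of the 3 doses against HFC). These contrasts share the HFC arrays.

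Hsph1 had the most regular difference between diets. On HFC its 6 weekly values were 3.44, 3.70, 4.33, 3.46, 3.68 and 3.47, and on HF20 they were 1.76, 1.88, 3.53, 1.76, 2.64 and 2.32. HF20 was below HFC at 6 of 6 weeks, with differences of -1.82 to -0.80, and the ranges overlapped only through HF20 week 9. The mean difference was -1.37 ± 0.35 (SE, limma unadjusted p = 0.000695, adjusted p = 0.780), -1.06 with the score as a covariate and -1.29 without both arrays that stood apart. HF5 was also below HFC at 6 of 6 weeks (mean -0.57 ± 0.35), and HF75 at 4 of 6 (-0.52 ± 0.35). The mean of the 3 doses was -0.82 ± 0.29 (limma unadjusted p = 0.00869, adjusted p = 1.000). HFC was in turn 0.81 ± 0.35 above LFC (limma unadjusted p = 0.0292, adjusted p = 1.000), at 5 of 6 weeks, and 0.56 ± 0.38 without both arrays that stood apart. None of these differences passed the adjusted threshold.

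For Hspa1a the mean difference of HF20 from HFC was -2.75 ± 1.01 (SE, limma unadjusted p = 0.0117, adjusted p = 0.780). That difference came from weeks 6, 12 and 18 (-6.55, -5.20 and -5.85), while at weeks 3, 9 and 15 it was 1.22, -0.29 and 0.17. The score differences at weeks 6, 12 and 18 were -4.90, -4.20 and -5.14. With the score as a covariate the Hspa1a difference was -0.64 ± 0.37. For HF5 the mean Hspa1a difference was -0.24 ± 1.01 and for HF75 -0.26 ± 1.01, with limma adjusted p of 0.985 and 1.000, and both changed sign when the arrays that stood apart were left out (0.29 and 0.27).

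Hsf1 was higher on HF5 than on HFC at 6 of 6 weeks, by 0.16 to 0.97, with a mean of 0.40 ± 0.22 (limma unadjusted p = 0.0783, adjusted p = 0.954). The difference of 0.97 came at week 9, where the HF5 array was the dimmest of all, with 119.5 as the 75th percentile of its signal. The HF20 minus HFC difference of Hspb1 was -0.92 ± 0.59 (limma adjusted p = 0.780), 0.21 with the score as a covariate and -0.55 without both arrays that stood apart. The differences of Hspa8, Dnajb1, Hspd1, Hspe1 and Hsp90aa1 for the 3 doses lay between -0.67 (Dnajb1, HF20) and 0.42 (Hspd1, HF20), each less than 2 SE from 0.

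**Figure D4:**
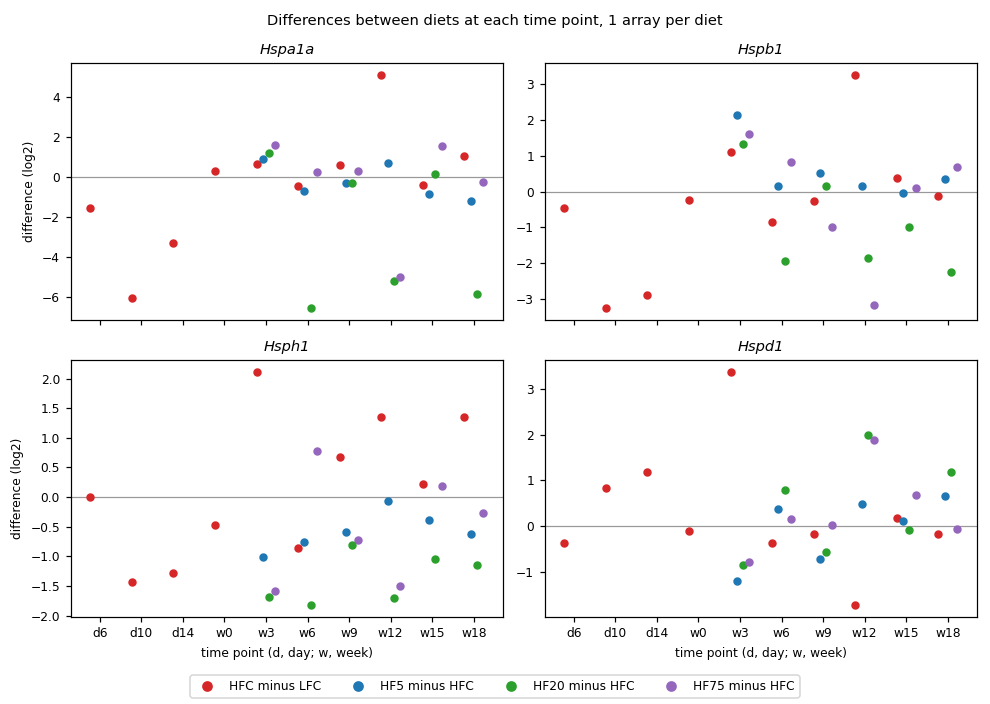
Difference between diets at each time point (y axis, log2; 1 array per diet) for Hspa1a, Hspb1, Hsph1 and Hspd1 against time (x axis, days then weeks), coloured by contrast. HF20 minus HFC was below 0 at all 6 weeks for Hsph1, whereas for Hspa1a it was near or above 0 at weeks 3, 9 and 15 and below -5 at weeks 6, 12 and 18.

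Time within a diet was compared as weeks 3 to 18 (late) against the earlier arrays. On HFC the early values of Hsph1 were 2.25, 1.08, 1.36 and 1.85 (days 6, 10 and 14 and week 0), all below the lowest late value, 3.44. Late minus early was 2.05 ± 0.30 (limma unadjusted p = 3.02e-05, adjusted p = 0.185). Hspa1a was 4.12 ± 1.02 higher late (limma adjusted p = 0.210), but its week 0 value of 5.08 lay within the late range of 3.76 to 6.91. Hspb1 was 2.66 ± 0.72 higher (limma adjusted p = 0.215) and Dnajb1 1.16 ± 0.30 higher (limma adjusted p = 0.211), also with week 0 inside the late range. In all, 0 of 30581 probes (0%) passed in limma, while 5152 probes had an unadjusted p under 0.05, among them 7 of the 9 heat shock genes. Hspd1 (-0.58 ± 0.41) and Hspe1 (-0.10 ± 0.34) were the exceptions.

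The early HFC arrays had scores of -0.63, -0.22, 3.44 and 4.65, against 2.21 to 5.53 late. With the score as a covariate the differences were 1.98 for Hsph1, 1.56 for Hspa1a, 1.15 for Hspb1 and 0.94 for Dnajb1 (limma adjusted p = 0.998 for each). Without week 0 the differences of Hspa1a (5.21), Hspb1 (3.49) and Hsph1 (2.12) passed, each with a limma adjusted p of 0.0304, and 745 of 30007 probes (2.48%) passed in that fit. Days 6 to 14 were scanned in a different period from the late arrays, and for those days time and scan period cannot be told apart.

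On LFC 149 of 30418 probes (0.49%) passed for late against early arrays, and no heat shock gene was among them. Hspa1a was 1.00 ± 1.32 higher late (limma adjusted p = 0.946), with ranges of 1.05 to 6.19 early and 0.33 to 6.89 late. Hsph1 was 0.50 ± 0.53 higher (limma adjusted p = 0.932) and the difference of Hspd1 was -0.64 ± 0.62 (limma adjusted p = 0.932). Without LFC week 3 these differences were 1.34, 0.81 and -0.23, and with a time point left out that of Hspa1a ran from 0.31 to 1.91. The change of the HFC minus LFC difference from early to late was itself tested, and 0 of 29168 probes (0%) passed in limma, with 1499 at an unadjusted p under 0.05. It was 3.74 ± 1.28 for Hspa1a (limma unadjusted p = 0.0137, adjusted p = 0.841), 2.29 ± 0.87 for Hspb1 and 1.61 ± 0.58 for Hsph1 (limma adjusted p = 0.841 for both), and 2.86, 1.48 and 1.15 without both arrays that stood apart (limma adjusted p = 0.690 for each). The change with time was thus not shown to differ between HFC and LFC for any member.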

How the data were processed

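Total RNA was labelled with Cy3 and hybridised to 1-colour Agilent arrays, and the authors deposited a scanner table per array whose processed signal is an intensity, background-subtracted by Feature Extraction (version 10.5.1.1 per the file headers, 9.1 in the submitters' processing notes) and not scaled between arrays. A further table holds the authors' log2 differences from LFC and was not used. Of 45220 spots, control spots were left out, and log2 of the signal minus the 75th percentile of the array was taken. Outlier spots still counted in that percentile. They were left out afterwards, and the remaining spots of a probe were then averaged. The number of arrays, 1 per diet and time point, limits the precision. The arrays of week 9 hold signals rounded to whole numbers.

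Groups came from the labels. Probes were tested with limma 3.58.1 (R 4.3.3), with two-sided p-values adjusted by the Benjamini-Hochberg method over all probes detected well above background (a mark in the scanner tables) on 10 or more of 20 arrays (HFC against LFC), 6 of 30 (weeks 3 to 18), 5 of 11 (LFC) or 4 of 10 (HFC) for change with time, and 20 of 39 (slope). Time point was a block in the diet comparisons and the slope, and the threshold was 0.05. The slope within the lower set of arrays was fitted without terms for diet or time point. Permutation tests used 100000 resamples (numpy 2.4.6, with ranks from scipy 1.17.1). A correlation pooled over all arrays had been planned and is not given, because the scores fell into separate sets. The paired time points rest on the labels. Deviations of HFC and LFC arrays of a time point had correlations of -0.535 to 0.784, above 0.1 for 8 of 10 time points.

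The members and lists were chosen with earlier results of these data known. All members were named, with 5 likeness genes (planned against the mean of 4 genes, made over 3 since Hspa1b had no probe) and up to 3 genes per list by smallest p in the slope. The scripts were tested on simulated data. Alternatives were quantile scaling, normexp background (offset 50), other filters on dim probes, outlier spots kept, array weights, each time point left out, the arrays that stood apart left out, the next brightest probe, slide and scan date blocks, no block, other scores and a t-test on the paired differences of HFC and LFC over time points. The last stands in for the methods' t-test, which was of 3 control against 3 treated values. After the data were seen, the score as a covariate, fits within each set of arrays and slopes without each array that stood apart were added.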

Additional observations from a re-analysis of the deposited data

Results flagged for a closer look

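Among 40 sets of 4 to 10 arrays of a diet examined for a single array far from the rest (the heat shock genes and the score), 3 held one. LFC, with 11 arrays, was beyond that size and was not examined as a whole. Chance gives about 1 in 20, so a number near this can arise by chance. All 3 were the HF75 week 12 array, and they are not independent of each other. Hspa1a was 0.43 there, and the nearest HF75 array, week 3, was at 5.35. Hspd1 was 5.21, with the nearest at 4.30. The immediate early score was 0.14, with the nearest at 4.79. Without week 12 the mean Hspa1a difference of HF75 from HFC was 0.69 in place of -0.26.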

How the results depend on the processing

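The diet comparisons had 0 probes called under all alternatives run, with or without the time point block, except that the mean of the 3 doses had 0 to 1 with a time point left out. For the slope, leaving out the replicate block (time point) called 13374 of 28044 probes and 8 heat shock genes. The main fit called 9437 of the same probes (33.7%) and 5 heat shock genes. A filter for probes above background on all arrays gave 4868 of the 12785 probes it left. Arrays above the gap gave 60 of 27264 (1 heat shock gene) and arrays below it 2 of 29468 (0 heat shock genes), where fewer arrays were fitted. The fit below the gap also left out diet and time point. Slopes below the gap turned to -0.26 for Hspa8, -0.011 for Dnajb1, -0.20 for Hsp90aa1 and -0.095 for Hsf1, in a set that includes LFC week 3. Leaving out a time point gave 5997 of 27653 probes (without week 12) to 9783 of 28004 (without week 3), and 4 to 7 heat shock genes. On LFC, 149 of 30418 probes were called late against early. Of as many tested, this became 67 with quantile scaling, 0 with normexp, 82 with outlier spots kept and 291 with array weights. The count was 40 of 15302 with the filter for all arrays and 2 of 27956 over weeks 0 to 18. It was 48 (without day 6) to 210 with a time point left out. For the same contrast on HFC, 0 became 6851 of 30581 probes with array weights (5 heat shock genes) and 4 of 30247 over weeks 0 to 18. With a time point left out it was 0 to 745 probes and 0 to 3 heat shock genes. Both were highest without week 0, where 30007 probes were tested. The change of the HFC minus LFC difference gave 1 with array weights. The Hspa1a difference of HF5 from HFC was 0.29 without LFC week 3 and HFC week 12. That of HF75 from HFC was 0.27 without them, 0.13 with a scan date block, 0.10 with the score as a covariate and -0.63 to 0.69 with a time point left out. That of HFC from LFC was -1.01 to 0.22. Of 81 differences of heat shock genes outside the slope, 43 changed sign under at least 1 setting and 5 passed under at least 1, the settings added later left out. The matching share over all probes is not given, and the causes of these changes were not tested. With normexp the median of all probes moved from 0.06 to -0.25 for HFC against LFC at weeks 3 to 18 and from -0.09 to 0.31 for late against early on LFC. Saturation limits the highest Hspa1a and Hspa8 values.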
